A study of Mus musculus with 24 samples.

Results

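Ly6a, Ly6c1, Ly6c2 and Ly6e, 4 genes for Ly6 surface proteins, were followed in the RNA-seq libraries of 3 splenic Treg subsets from young and old mice. The members were chosen by symbol, as the rows of the table of normalized reads whose Ensembl identifier belongs to one of these genes, and not by their values. All 4 were among the 17464 genes listed, and all 4 passed the filter on low values that left 16630 genes for testing (10 normalized reads or more in 4 libraries or more). Each subset of each of 8 WT C57BL/6JRccHsd mice gave 1 library, so that 24 libraries fell into 6 groups of 4. Resting Treg (rTreg) cells were labelled CD44−, activated Treg (aTreg) cells CD44+, and kTreg cells KLRG1+, from mice aged 2 months (young) or 26 months (old). The labels name no transgene or treatment, and the replicate number names the mouse from which the 3 subsets were taken. The age groups were compared within each subset and the subsets within each age, since the study asked how kTreg cells differ from other Treg cells and what changes with age.

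Ly6 proteins are small, cysteine-rich proteins of the Ly6/uPAR fold that are held on the outer face of the plasma membrane by a glycosylphosphatidylinositol (GPI) anchor. In the mouse, the genes lie in a cluster and serve as markers of haematopoietic cells. Ly6a encodes Sca-1, a marker of blood stem cells that is raised in T cells after activation and by interferons. Ly6c1 and Ly6c2 encode the nearly identical Ly6C proteins, which mark inflammatory monocytes and are also carried by subsets of T cells, plasma cells and endothelium. Ly6e encodes a small interferon-inducible protein of T cells and many other cells that is known for its effects on the entry of viruses.

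The genes lie on mouse chromosome 15 (GRCm39, GENCODE M39). Ly6e (ENSMUSG00000022587) spans 74826860 to 74847454 on the plus strand, and the others are on the minus strand, with Ly6a (ENSMUSG00000075602) at 74863840 to 74869880, Ly6c1 (ENSMUSG00000079018) at 74915847 to 74920686 and Ly6c2 (ENSMUSG00000022584) at 74980003 to 74988467. The coding sequences of Ly6c1 and Ly6c2, of 393 bases each, are identical at 384 bases (97.7%), and their longest identical run is 188 bases. Against Ly6a the identity of the aligned bases is 83.7% for Ly6c1 and 83.5% for Ly6c2, and against Ly6e it is 59.4% and 61.0%. Coding positions 208 to 327 are shown because they give the 2 bases by which reads from this stretch can be told apart. They lie within exon 3 of the canonical transcript of Ly6c1 (chr15:74917320-74917439, minus strand) and exon 4 of that of Ly6c2 (chr15:74980461-74980580, minus strand), and the 2 capitals mark the bases that differ.
Ly6c1: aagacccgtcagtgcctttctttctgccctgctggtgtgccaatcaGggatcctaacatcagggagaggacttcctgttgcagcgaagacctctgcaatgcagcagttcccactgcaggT
Ly6c2: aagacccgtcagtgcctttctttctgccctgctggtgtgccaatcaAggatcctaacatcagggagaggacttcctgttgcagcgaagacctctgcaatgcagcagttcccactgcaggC
Of the distinct 150-base stretches of the annotated transcripts, 409 of 4232 (9.66%) for Ly6c1 and 409 of 3777 (10.8%) for Ly6c2 also occur in the other gene. For Ly6a, 122 of 5777 stretches (2.11%) are shared, all with Gm28068, a lncRNA annotated on the opposite strand. None of the 7327 stretches of Ly6e is shared with another gene, each transcript being read in its own direction only. The split of reads between Ly6c1 and Ly6c2 is therefore uncertain, and the sum of both genes is given after their own values. The kit does not mark strand as far as the sources used here say, so reads of Ly6a and Gm28068 cannot be told apart where they overlap. Gm28068 was listed at no more than 36.7 normalized reads in any library. Stretches were not compared with the reverse strand of other transcripts. Gm62552, a lncRNA on the strand opposite to Ly6e that overlaps it, was not among the listed genes.

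The sequences upstream of the outermost RefSeq starts of the Ly6c genes differ more than the coding parts. The RefSeq promoter table (GRCm38.p6) held 2 windows each for Ly6c1 and Ly6c2, each of 250 bases before and 50 bases after a start, and Ly6a and Ly6e were not matched in it. The parts of the outermost windows that lie beyond the RefSeq span of each gene are shown because the Ly6c genes moved in opposite directions with age in rTreg cells. The cut was made on RefSeq only, and transcripts of GENCODE M39 may reach further. Capitals mark bases that differ or have no partner in the alignment. They lie at chr15:75048921-75049087 for Ly6c1 and chr15:75112067-75112221 for Ly6c2 in GRCm38.p6, both on the minus strand.
Ly6c1: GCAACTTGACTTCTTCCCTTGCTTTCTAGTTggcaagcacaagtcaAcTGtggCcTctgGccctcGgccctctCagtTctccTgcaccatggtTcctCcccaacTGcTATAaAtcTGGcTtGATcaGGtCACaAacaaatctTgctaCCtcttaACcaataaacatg
Ly6c2: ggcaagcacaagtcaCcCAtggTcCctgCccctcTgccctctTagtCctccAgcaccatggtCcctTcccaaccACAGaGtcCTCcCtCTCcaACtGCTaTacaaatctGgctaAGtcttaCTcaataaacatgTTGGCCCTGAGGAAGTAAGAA
Of 134 aligned bases, 99 (73.9%) were identical. Both strands of the 4 windows were searched for the core of the interferon-stimulated response element (GAAANNGAAA), the STAT-binding GAS element (TTCNNNGAA), the T-box core (GGTGTG) and the GATA site (AGATAA). The single match was a T-box core in the inner window of Ly6c1, 112 bases before its start. These motifs occur in 3.44%, 8.3%, 19.0% and 11.2% of the 32851 windows in the table, and a match or its absence is a description of the letters only.

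The libraries held between 15045747 and 29521942 reads on listed genes. Foxp3 was at 5079 or more normalized reads in every library and Klrg1 at 16559 or more in kTreg libraries against 357 or less in the others, so the kTreg libraries matched their label in this marker. Markers of other cells were found in some libraries. The summed level of 10 monocyte and macrophage genes was 11425 to 28923 in old rTreg libraries and 1076 to 9346 in young ones. That of 10 neutrophil genes was 656 to 17905 against 48 to 4797, and that of 7 plasma cell genes 63162 to 107364 against 26396 to 45206. That of 6 NK cell genes was 1885 to 6049 against 356 to 1340. The 3 libraries of young mouse 2 held the most B cell transcripts of their groups, with summed levels of 8 genes of 8379 to 17540 against 2065 or less in all other libraries. The young kTreg library of replicate 4 listed 4913 genes at 0, against 2756 or fewer in every other library, and the old aTreg library of replicate 2 had the lowest Foxp3 value. In bulk libraries, fewer cells of a type and less RNA per cell cannot be told apart. Per the series' design text, the replicates of a group were separate mice, and the 3 subsets of a mouse came from the same animal. The spread of libraries within groups was the error used, and the main fit did not pair the libraries of a mouse.

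Per kilobase of exon, Ly6e was the most abundant member in all 6 groups, with mean levels between 11868 ± 579 (old kTreg) and 17491 ± 2220.1 (young rTreg) normalized reads per kilobase (SD, n = 4). Ly6a ranged from 2067 ± 365 per kilobase in young rTreg to 5738 ± 2313 in old aTreg cells. Ly6c1 was close to Ly6a in young rTreg cells, at 2087 ± 580.3 per kilobase, and was 79.9 ± 25.3 in old kTreg cells. Ly6c2 was the lowest of the 4 in the 3 young groups, between 48.4 ± 9.08 and 122 ± 90.3 per kilobase, and lay above Ly6c1 in old rTreg (572 ± 358 against 359.8 ± 62.7) and old kTreg cells (237 ± 188 against 79.9 ± 25.3). The members thus had 4 different patterns over the same libraries, and Pearson correlations of log2(value + 1) over the 24 libraries were between −0.57 (Ly6c2 with Ly6e) and 0.63 (Ly6c1 with Ly6e). All libraries of a mouse and all libraries of a group share sources of variation, so these correlations are descriptions only.

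**Figure D1:**
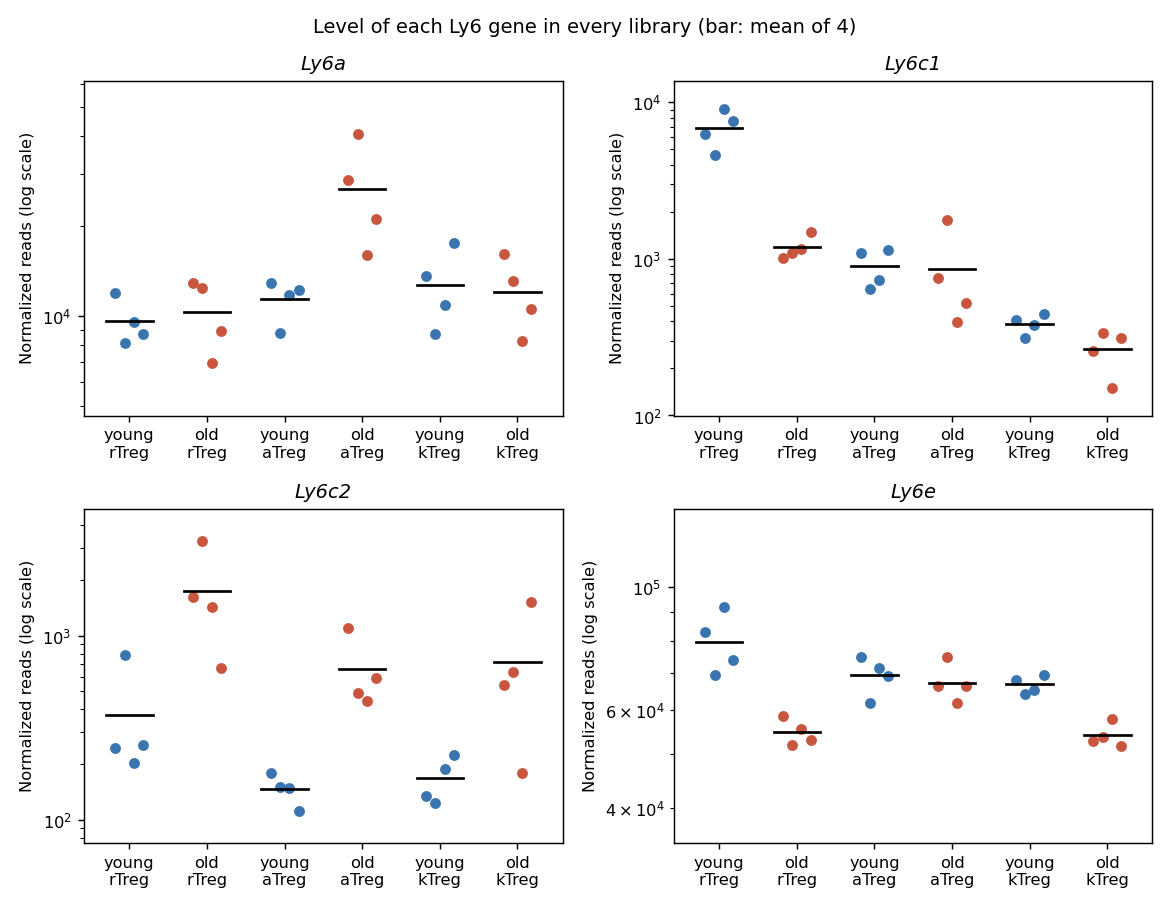
Normalized reads of Ly6a, Ly6c1, Ly6c2 and Ly6e (log axis) in each of 24 libraries, as points in 6 groups of 4 (blue, young; red, old), with the group mean as a bar. Old aTreg libraries have the highest mean for Ly6a (16074 to 40847, with 1 young and 1 old kTreg library above the lowest of them), young rTreg libraries highest for Ly6c1 (4592 to 9121), old libraries of each subset have the higher mean of Ly6c2, and Ly6e varies least.

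Ly6c1 was highest in young rTreg cells. Young rTreg libraries held 6317, 4592, 9121 and 7558 normalized reads, young aTreg libraries 1097, 639, 735 and 1146, and young kTreg libraries 408, 312, 378 and 445. No library of one subset overlapped with those of another in the young mice, so the order rTreg, aTreg, kTreg necessarily held in each of 4 mice. The mean was 7.63-fold lower in young aTreg than in young rTreg cells (log2 fold change −2.93 ± 0.35 (SE), adjusted p = 2.39e-05 by limma). It was 17.9-fold lower in young kTreg than in young rTreg cells (log2 fold change −4.12 ± 0.35 (SE), adjusted p = 2.78e-08) and 2.34-fold lower in young kTreg than in young aTreg cells (log2 fold change −1.19 ± 0.35 (SE), adjusted p = 0.0349). The first 2 calls held under every setting and with each library left out. The third was lost when any one of 6 libraries was left out (young aTreg replicates 1, 3 and 4 and young kTreg replicates 1, 2 and 3; adjusted p = 0.0538 to 0.103 and log2 fold change −1.28 to −1.07). Ly6c1 was the only member called in young aTreg against young rTreg cells (1 of 4, where 3.35% of all genes tested were called) and in young kTreg against young rTreg cells (1 of 4, where 15.8% were called), and likewise in young kTreg against young aTreg cells (1 of 4, 6.95% of all genes).

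In old mice the same gene started from a lower level. Old rTreg libraries held 1019, 1092, 1157 and 1488 normalized reads of Ly6c1, so all 4 lay below the lowest young rTreg library, and the mean was 5.8-fold lower (log2 fold change −2.51 ± 0.35 (SE), adjusted p = 9.10e-05), a call that held under every setting and with each library left out. Old aTreg libraries held 750.5, 1782, 393 and 519 and old kTreg libraries 257, 338, 149 and 312, and both overlapped with the young libraries of their subset. Ly6c1 was not called between the ages in aTreg (log2 fold change −0.28 ± 0.35 (SE), adjusted p = 0.889) or kTreg cells (log2 fold change −0.60 ± 0.35 (SE), adjusted p = 0.397). Among old mice, it was lower in kTreg than in rTreg cells, 4.5-fold (log2 fold change −2.22 ± 0.35 (SE), adjusted p = 0.000262), and lower in kTreg than in aTreg cells, 3.26-fold (log2 fold change −1.52 ± 0.35 (SE), adjusted p = 0.0218). Without old aTreg replicate 2, which held 1782 reads of Ly6c1, the latter was not called (log2 fold change −1.08, adjusted p = 0.0962), nor was it without old aTreg replicate 1 (−1.50, 0.0589) or old kTreg replicate 3 (−1.26, 0.104). The same library decided the comparison of old aTreg with old rTreg cells, which was not called in all libraries (log2 fold change −0.70 ± 0.35 (SE), adjusted p = 0.219) and was called without it (−1.13, 0.0192).

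The difference of Ly6c1 between rTreg cells and the other subsets was not the same at both ages. The difference of the log2 fold changes (old minus young) was 2.23 ± 0.49 for aTreg against rTreg cells (adjusted p = 0.0246, 1 of 4 members called where 1.56% of all genes were called). It was 1.91 ± 0.49 for kTreg against rTreg cells (adjusted p = 0.0339, 1 of 4 where 3.02% were called). For kTreg against aTreg cells it was −0.32 ± 0.49 (adjusted p = 0.824), and 0 of 4 members were called there by limma (0.156% of all genes), with 2 of 4 at an unadjusted p under 0.05 and 0 of 4 called by edgeR or DESeq2. Leaving out 1 of 4 libraries (young rTreg replicates 3 and 4, young aTreg replicate 2, old aTreg replicate 1) took the first adjusted p of Ly6c1 to between 0.0502 and 0.069. Leaving out 1 of 9 (young rTreg replicates 1, 3 and 4, old rTreg replicate 1, young kTreg replicates 2 and 3, old kTreg replicates 1, 2 and 4) took the second to between 0.0528 and 0.0897. These 3 tests, and all comparisons that use the same group, share libraries.

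Ly6c2 went the other way with age. Young rTreg libraries held 245, 784, 203 and 256 normalized reads and old rTreg libraries 1621, 3271, 1435 and 671. The groups overlapped through young replicate 2 and old replicate 4, and the mean was 4.7-fold higher in old rTreg cells (log2 fold change 2.25 ± 0.53 (SE), adjusted p = 0.0114). In aTreg cells the libraries did not overlap, with 179, 151, 149.5 and 112 reads in young and 1109, 487, 442 and 592 in old mice, and the mean was 4.45-fold higher in old cells (log2 fold change 2.06 ± 0.53 (SE), adjusted p = 0.0313). In kTreg cells the values were 135, 123, 189.6 and 224 in young and 539.6, 639, 179.9 and 1535 in old mice. The means there differed 4.31-fold but old replicate 3 lay within the young range, and the difference was not called (log2 fold change 1.76 ± 0.53 (SE), adjusted p = 0.105). It was called without that library (log2 fold change 2.30, adjusted p = 0.0258) and by DESeq2 on the recovered reads (2.10, 0.00364). The call in rTreg cells was lost without young replicate 3 (2.03, 0.0542). The call in aTreg cells was lost without any one of 6 of the 8 aTreg libraries (all but young replicate 1 and old replicate 3), with adjusted p between 0.0593 and 0.134 and log2 fold changes between 1.78 and 2.18.

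Between subsets within an age, Ly6c2 did not pass the test by limma in any comparison. Against rTreg cells the differences were log2 fold changes of −1.11 ± 0.53 (young aTreg), −0.95 ± 0.53 (young kTreg), −1.29 ± 0.53 (old aTreg) and −1.43 ± 0.53 (old kTreg), with adjusted p between 0.0886 and 0.358. The difference of old aTreg cells was called by DESeq2 (−1.41, adjusted p = 0.0451), and that of old kTreg cells by limma without old rTreg replicate 4 (−1.82, 0.04) or old kTreg replicate 4 (−1.92, 0.0268). kTreg and aTreg cells were closer, with differences of 0.16 ± 0.53 (young) and −0.14 ± 0.53 (old) on the log2 scale. The age difference of Ly6c2 was not distinguishable between the subsets, with differences of −0.18, −0.30 and −0.48 (SE 0.75, adjusted p from 0.767 to 0.94), which leaves room for differences of more than 1 on the log2 scale in either direction.

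As a share of the reads of both Ly6c genes, Ly6c2 made up 3.73, 14.6, 2.18 and 3.28% in young rTreg libraries and 61.4, 74.98, 55.4 and 31.1% in old ones. The shares were 14.1, 19.1, 16.9 and 8.88% in young and 59.6, 21.4, 52.9 and 53.3% in old aTreg libraries. They were 24.8, 28.4, 33.4 and 33.5% in young and 67.8, 65.4, 54.6 and 83.1% in old kTreg libraries. In each subset all old libraries lay above all young ones, although old aTreg replicate 2, at 21.4% (95% Wilson interval 19.8 to 23.2%), came close to young replicate 2 at 19.1% (16.8 to 21.7%). The intervals cover counting error only. The share is given as a description with no test.

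**Figure D2:**
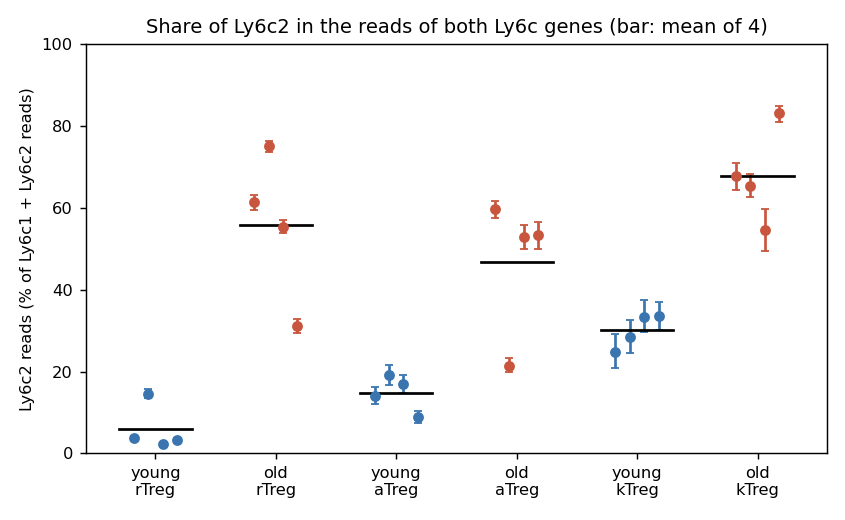
Ly6c2 reads as a percentage of the reads of Ly6c1 and Ly6c2 together in each of 24 libraries (blue, young; red, old), with 95% Wilson intervals as error bars and the mean of 4 libraries as a black bar. The group means are 5.94 (young rTreg), 55.7 (old rTreg), 14.7 (young aTreg), 46.8 (old aTreg), 30.0 (young kTreg) and 67.7% (old kTreg).

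Ly6c1 and Ly6c2 summed do not depend on how reads were split between the genes, apart from reads dropped as ambiguous. The sum was 7269 ± 1694 (SD, n = 4) normalized reads in young and 2938 ± 974 (SD, n = 4) in old rTreg cells. It was 1052 ± 252 (SD, n = 4) in young and 1519 ± 661 (SD, n = 4) in old aTreg cells, and 554 ± 96.2 (SD, n = 4) in young kTreg and 987 ± 635 (SD, n = 4) in old kTreg cells. The sum was lower than in rTreg cells in young aTreg (log2 fold change −2.79 ± 0.38 (SE), adjusted p = 8.71e-05), young kTreg (log2 fold change −3.70 ± 0.38 (SE), adjusted p = 3.14e-07) and old kTreg cells (log2 fold change −1.77 ± 0.38 (SE), adjusted p = 0.00399). It was also lower in old than in young rTreg cells (log2 fold change −1.33 ± 0.38 (SE), adjusted p = 0.0354), a call that was lost when any one of 6 of those 8 libraries was left out (all but young replicate 2 and old replicate 2; adjusted p = 0.0585 to 0.129). The sum was not called in old aTreg against old rTreg cells (log2 fold change −1.01 ± 0.38 (SE), adjusted p = 0.0939), nor in kTreg against aTreg cells of young (log2 fold change −0.91 ± 0.38 (SE), adjusted p = 0.151) or old mice (log2 fold change −0.76 ± 0.38 (SE), adjusted p = 0.325). The age differences of the sum were not called either, at 1.78 ± 0.53 for aTreg against rTreg (adjusted p = 0.0987) and 1.93 ± 0.53 for kTreg against rTreg cells (adjusted p = 0.0505). The calls of Ly6c1 alone in kTreg against aTreg cells and in these age differences were therefore not met by the sum in the main fit. For kTreg against rTreg cells the age difference of the sum was close in size to that of Ly6c1 (1.91). It was called in 8 of 12 other settings. The sums of kTreg and aTreg libraries did not overlap in young mice (unadjusted p = 0.0247 by limma) and overlapped in old mice. In aTreg and kTreg cells the sums did not pass the test between the ages (log2 fold change 0.45 ± 0.38 and 0.60 ± 0.38, adjusted p = 0.754 and 0.429).

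Markers of cells that are known to carry Ly6C were read beside these values. Beside Ly6c1, the summed level of 5 endothelial and stromal genes was 2709 to 3879 in young rTreg libraries. It was 1415 to 2439 in young aTreg and 914 to 1980 in young kTreg libraries. Old rTreg libraries overlapped with young ones, at 2255 to 3344. That of 2 CD8 T cell genes was 566 to 2185 in young and 295 to 554 in old rTreg libraries. In young aTreg libraries, at 339 to 1115, it overlapped with young rTreg. The part of these cells in the Ly6c1 values was not tested. Lyz2, a lysozyme gene of monocytes and neutrophils, was at 515, 6548, 1136 and 801 normalized reads in young rTreg and 16258, 9633, 25153 and 9381 in old rTreg libraries. Jchain, the joining chain of secreted antibodies, was at 50.3, 1025, 170.1 and 97.4 and 3280.4, 4212, 9158 and 2941. Both were therefore higher in old rTreg cells, as Ly6c2 was. Young replicate 2, the young rTreg library highest in Ly6c2, was also highest in both markers. This was not so among old rTreg libraries, where Ly6c2 was highest in replicate 2 (3271) and both markers in replicate 3 (Ly6c2 at 1435). The part of these markers in the rTreg result was not tested. Without the 3 libraries of young mouse 2, Ly6c2 was higher in old rTreg cells by 2.68 on the log2 scale (adjusted p = 0.00411). In aTreg cells, Lyz2 was at 136, 2232, 94.8 and 32.9 in young and 224, 133, 202 and 104 in old libraries and Csf1r, the receptor that defines macrophages, at 0 to 278 and 7.81 to 15.7. The summed monocyte list, 10 genes with Ccr2 among them, was at 1581 to 4262 in young and 2791 to 7400 in old aTreg libraries, and Ccr2, which Treg cells also use, made up 1311 to 2515 and 2651 to 7233 of this. Jchain was at 18.9, 0, 0 and 9.53 in young and 296, 100.2, 164 and 423 in old aTreg libraries and Igkc, the kappa light chain, at 50.2 to 2398 and 1096 to 3799. Lyz2 overlapped between the ages in aTreg cells, and Ly6c2 and Jchain did not. Among old aTreg libraries Ly6c2 was highest in replicate 1 (1109) and Jchain in replicate 4 (423). The part of monocyte or plasma cell RNA in the aTreg values of Ly6c2 was not tested. In kTreg cells Lyz2 was at 568, 6805, 145 and 0 in young and 1739, 1453, 2268 and 1641 in old libraries. All old libraries thus lay above 3 of 4 young ones. The summed monocyte list went the other way, at 8650 to 31901 in young and 6087 to 8668 in old kTreg libraries. Ccr2 made up 6347 to 8844 and 4069 to 6690 of this. Csf1r overlapped between the ages, at 0 to 7542 and 140 to 325. Itgam, a gene of that list, was at 126, 96.6, 123 and 0 in young and 9.43, 41.4, 78.1 and 23.6 in old kTreg libraries. The part of monocyte RNA in the kTreg values of Ly6c2 was not tested. Jchain was at 10.5, 554, 0 and 0 in young and 1819, 225, 559 and 1243 in old libraries. Over the 7 listed plasma cell genes the sums overlapped between the ages in aTreg (41584 to 44150 against 23377 to 60524) and kTreg cells (45152 to 56340 against 48831 to 89998). Ighm, the heavy chain of IgM, made up most of these sums, at 40034 to 42862 in young and 21778 to 56573 in old aTreg libraries and 42476 to 53843 and 45673 to 70866 in kTreg libraries. Without young mouse 2 the age difference of Ly6c2 in aTreg cells was 2.08 (adjusted p = 0.0573).

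**Figure D3:**
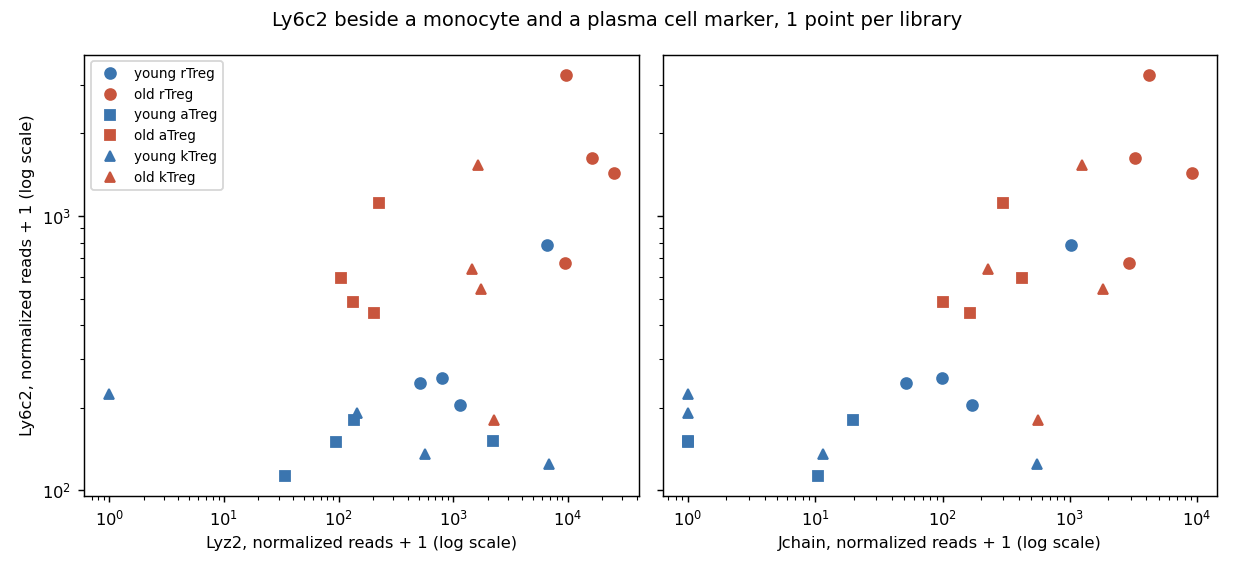
Normalized reads + 1 of Ly6c2 (vertical, log axis) against Lyz2 (left) and Jchain (right; both horizontal, log axes), 1 point per library (blue, young; red, old; circles rTreg, squares aTreg, triangles kTreg). Old rTreg libraries are high in Ly6c2 and in both markers, while old aTreg libraries are at 104 to 224 for Lyz2 and at 442 to 1109 for Ly6c2.

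Ly6a was highest in old aTreg cells. Old aTreg libraries held 28499, 40847, 16074 and 21221 normalized reads, against 12888, 8815, 11734 and 12223 in young aTreg libraries, so that the lowest old library lay above the highest young one. The mean was 2.34-fold higher in old aTreg cells (log2 fold change 1.15 ± 0.27 (SE), adjusted p = 0.0166). Young rTreg libraries held 11979, 8105, 9595 and 8742 and old rTreg libraries 12938, 12460.5, 6962 and 8911. There were 13586, 8694, 10938 and 17605 in young kTreg libraries and 16174, 13064, 8259.7 and 10581 in old kTreg libraries. These 4 groups overlapped with one another and with young aTreg libraries, and young kTreg replicate 4 and old kTreg replicate 1 lay above the lowest old aTreg library. Ly6a was 2.58-fold higher in old aTreg than in old rTreg cells (log2 fold change 1.33 ± 0.27 (SE), adjusted p = 0.00258), a call that held under every setting. It was 2.22-fold lower in old kTreg than in old aTreg cells (log2 fold change −1.11 ± 0.27 (SE), adjusted p = 0.029), where the value of kTreg was the lower in 4 of 4 mice. It was not called between young subsets (log2 fold changes 0.25, 0.12 and 0.37, SE 0.27, adjusted p = 0.81, 0.833 and 0.356) nor between the ages in rTreg (log2 fold change 0.07 ± 0.27 (SE), adjusted p = 0.917) or kTreg cells (log2 fold change −0.08 ± 0.27 (SE), adjusted p = 0.905).

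The highest Ly6a value, 40847, came from old aTreg replicate 2, the library with the lowest Foxp3. Foxp3 in the 4 old aTreg libraries was 16925, 5079, 18346 and 19813, in the order of the Ly6a values above, and in young aTreg libraries 20351 to 25465. Its part in the Ly6a result was not tested. Without that library Ly6a was still higher in old aTreg than in old rTreg cells by 1.09 on the log2 scale (adjusted p = 0.0132). The difference from young aTreg cells was 0.92 (adjusted p = 0.0907) and that of kTreg from aTreg cells in old mice −0.87 (adjusted p = 0.168), both then not called. The age call in aTreg cells was also lost without young replicate 2 (1.03, 0.0732) or old replicate 1 (1.09, 0.0594). The old kTreg call was lost without old aTreg replicate 1 or old kTreg replicates 2, 3 or 4 (−1.16 to −0.94, adjusted p = 0.0623 to 0.128). The tests of the difference between ages for aTreg against rTreg cells (1.08 ± 0.38, adjusted p = 0.155) and for kTreg against aTreg cells (−1.23 ± 0.38, adjusted p = 0.295) did not pass. With each mouse as a replicate block of fixed effects, both were called (adjusted p = 0.0124 and 0.0219), and with the block as an estimated correlation neither was (adjusted p = 0.11 and 0.205).

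Ly6e, the most abundant member, varied least. Its values were 83049, 69398, 92181 and 73919 in young rTreg and 58508, 51874, 55389 and 53104 in old rTreg libraries, which did not overlap. The old mean was 1.46-fold lower (log2 fold change −0.53 ± 0.09 (SE), adjusted p = 0.000398), a difference past the threshold of p but short of the 1.5-fold change asked of a call. Without young rTreg replicate 2 it was −0.60 and was called (adjusted p = 0.000142). Young aTreg libraries held 74885, 61861, 71502 and 68974 and old aTreg libraries 66187, 74782, 61802 and 66170.1, with no difference past the test (log2 fold change −0.04 ± 0.09 (SE), adjusted p = 0.95). Young kTreg libraries held 67966, 64263, 65209 and 69479.7 and old kTreg libraries 52863, 53675, 57814 and 51781, which did not overlap (log2 fold change −0.31 ± 0.09 (SE), adjusted p = 0.0785). In old mice Ly6e was higher in aTreg than in rTreg cells in 4 of 4 mice, by 0.30 ± 0.09 (adjusted p = 0.0295), and this difference was larger than in young mice by 0.49 ± 0.12 (adjusted p = 0.0428), all below 1.5-fold. In young mice it was lower in kTreg than in rTreg cells by a log2 fold change of −0.25 ± 0.09 (adjusted p = 0.0459). In old mice the kTreg libraries all lay below the aTreg libraries in Ly6e. That difference was not called (log2 fold change −0.31 ± 0.09 (SE), adjusted p = 0.0531 by limma).

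Counted over the 12 comparisons, 13 of 48 tests of a member were called, against 5.03% of the tests of all genes. In old aTreg against old rTreg cells, 1 of 4 members (Ly6a, higher) was called, where 8.6% of all genes were. In old kTreg against old aTreg cells, 2 of 4 were called (Ly6a and Ly6c1, both lower), against 2.2% of all genes, and in old kTreg against old rTreg cells 1 of 4 (Ly6c1, lower), against 8.86%. Between the ages, 2 of 4 were called in rTreg cells (Ly6c1 lower, Ly6c2 higher), against 5.83% of all genes, 2 of 4 in aTreg cells (Ly6a and Ly6c2, both higher), against 2.71%, and 0 of 4 in kTreg cells, against 1.26%. For kTreg cells, 2 of 4 members had an unadjusted p under 0.05 by limma, edgeR called 0 of 4 and DESeq2 1 of 4 (Ly6c2). The members were chosen by symbol with earlier results of these data known, and the groups of 4 genes are too small for a share to be read beyond these counts.

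**Figure D4:**
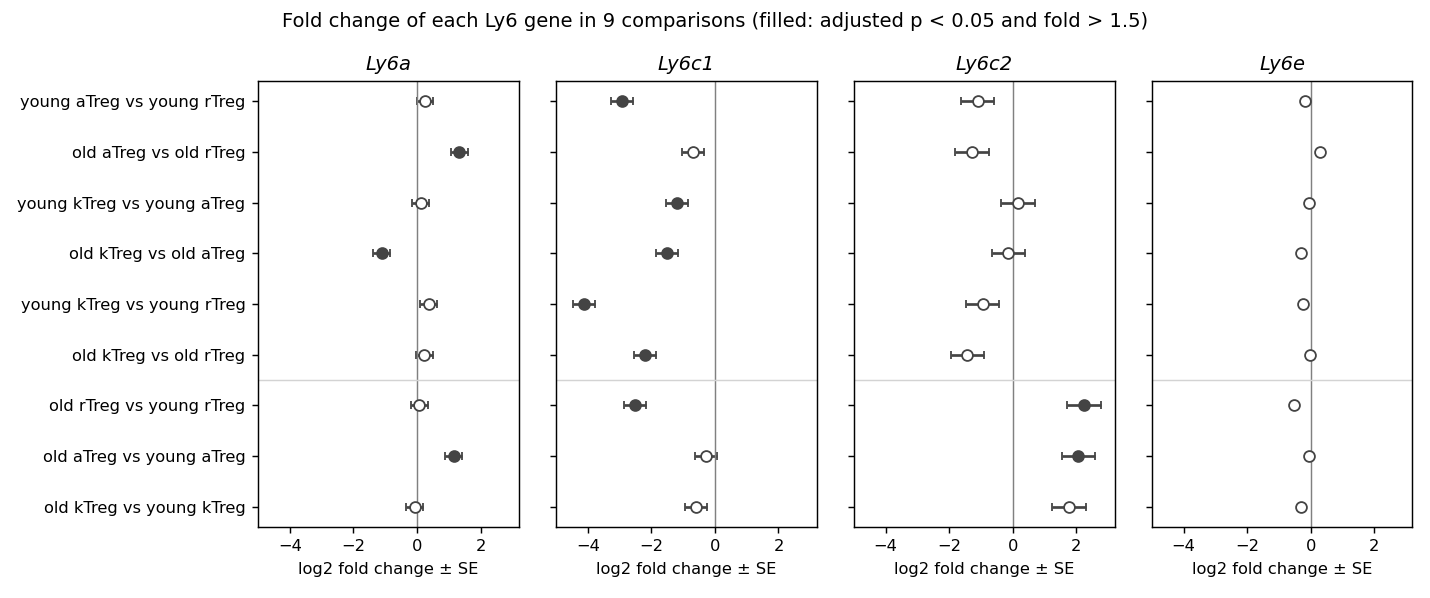
Log2 fold change (horizontal) ± SE from limma of Ly6a, Ly6c1, Ly6c2 and Ly6e in 9 comparisons of groups of 4 libraries, subsets within an age above the line and ages within a subset below it. Filled points were called (adjusted p below 0.05 and fold above 1.5). Ly6c1 is left of 0 throughout, from −4.12 to −0.28, Ly6c2 is right of 0 in the 3 age comparisons (1.76 to 2.25), and Ly6a is apart from 0 where old aTreg cells are compared.

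Other genes of the region were read from the same table. Within 200 kb of the members on chromosome 15, 9 further genes were listed, 8 of which were tested. Ly6d, which marks B cells and their precursors, had mean values of 611 in young rTreg, 128 in old rTreg, 234 in young aTreg, 9.06 in old aTreg, 169 in young kTreg and 22.5 in old kTreg cells. It was highest in the young libraries of mouse 2 that carried B cell markers (1881, 877 and 666) and was called lower in young kTreg than in young rTreg cells (log2 fold change −4.93 ± 1.49 (SE), adjusted p = 0.0235). The libraries of this comparison overlapped, at 0 to 666 in young kTreg and 160 to 1881 in young rTreg cells. Their means differed 3.62-fold, and the larger log2 fold change of Ly6d rests in part on values at or near 0. Ly6k was likewise lower there, with means of 126 and 582 (log2 fold change −2.06 ± 0.71 (SE), adjusted p = 0.0445), and so was the lncRNA Gm39556 (log2 fold change −1.41 ± 0.33 (SE), adjusted p = 0.00362), which was also lower in young kTreg than in young aTreg cells (log2 fold change −1.32 ± 0.33 (SE), adjusted p = 0.013). Ly6m was lower in old than in young rTreg cells, with means of 23.6 and 74.3 (log2 fold change −3.48 ± 0.97 (SE), adjusted p = 0.0314). The libraries overlapped, at 0 to 69.4 in old and 55.4 to 104 in young rTreg cells. The means differed 3.15-fold, and the larger log2 fold change rests in part on values at or near 0.

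Ly6a2 is annotated as a transcribed pseudogene. Its libraries were at 207, 237, 349 and 33.5 in old rTreg cells and at 11.3, 86.4, 5.27 and 1 in young rTreg cells, where the highest value was again that of mouse 2. Old aTreg libraries were listed at 3.63, 0, 0 and 0, so that Ly6a2 was lower in old aTreg than in old rTreg cells (log2 fold change −6.74 ± 1.24 (SE), adjusted p = 0.00121), opposite in direction to Ly6a. Its age difference in rTreg cells was not called (log2 fold change 3.86 ± 1.24 (SE), adjusted p = 0.0627). Ly6i, Ly6g, the neutrophil antigen, and Gm28068 had group means of 53.4 or less and no called comparison, and Gm17189 did not pass the filter.

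**Figure D5:**
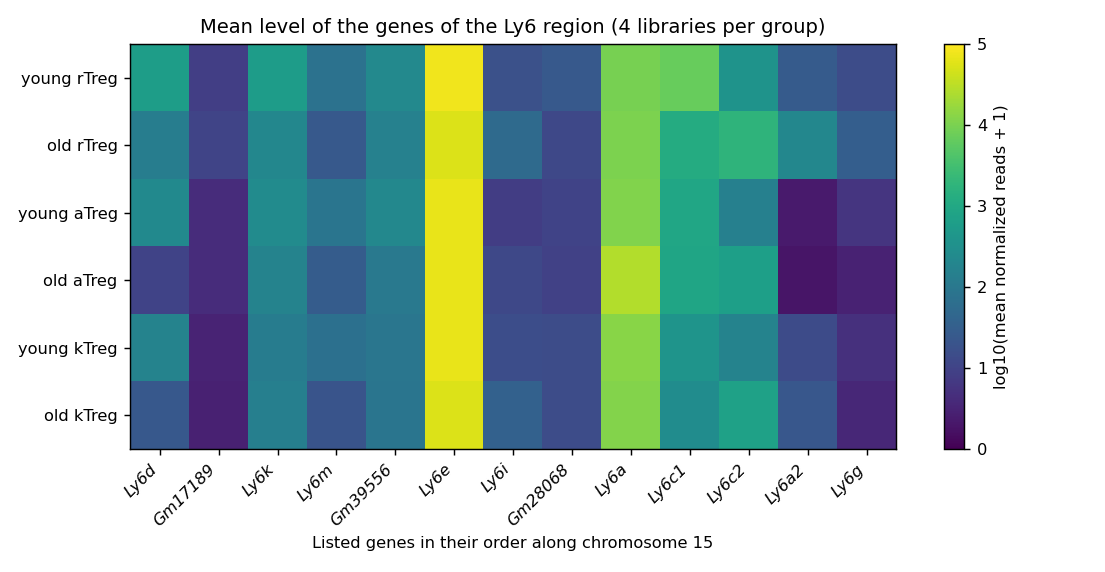
Mean level, as log10(mean normalized reads + 1) in colour, of 13 listed genes in their order along chromosome 15 (columns) in 6 groups of 4 libraries (rows). Ly6e and Ly6a are brightest in every row, and Ly6c1 and Ly6c2 exchange their order between young and old rTreg cells (6897 and 372 against 1189 and 1749 normalized reads).

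In the wider Ly6/uPAR family, 16 of 46 genes on the list were in the table and tested, the members among them. Over the comparisons, 0.156 to 15.8% of all genes were called, the most in young kTreg against young rTreg cells. Of the 16, between 0 and 2 were called higher and between 0 and 4 lower in any comparison, the 4 in young kTreg against young rTreg cells. Beyond the members and their neighbours these were Ly6g5b, which was higher in old aTreg than in old rTreg cells (log2 fold change 3.33 ± 0.95 (SE), adjusted p = 0.0277), Plaur, the urokinase receptor, lower there (log2 fold change −4.46 ± 1.14 (SE), adjusted p = 0.0144), and Lypd6b, lower in young kTreg than in young aTreg (log2 fold change −2.74 ± 0.78 (SE), adjusted p = 0.0318) and young rTreg cells (log2 fold change −2.64 ± 0.78 (SE), adjusted p = 0.0204). Ly6g5b was at 1657, 1865, 776 and 749.6 normalized reads in old aTreg libraries and at 73.1, 179, 86.7 and 149 in old rTreg libraries. The median log2 fold change of the 16 genes lay between −1.41 (young kTreg against young rTreg, all genes −0.14) and 0.59 (old kTreg against young kTreg, all genes 0.12) in the comparisons of 2 groups.

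Genes for the GPI anchor, on which all 4 proteins depend, were read beside the members. Of 35 tested genes for its synthesis, attachment and remodelling, 0 to 3 were called higher and 0 to 2 lower per comparison. Median log2 fold changes were between −0.15 and 0.12 in the comparisons of 2 groups. The share of all genes called ran from 0.156 to 15.8% over the comparisons and was 8.6% in old aTreg against old rTreg cells. The counts are not read as a result about these genes. Called higher were Pigp (log2 fold change 0.62 ± 0.18 (SE), adjusted p = 0.0287) and Pigf (log2 fold change 0.68 ± 0.20 (SE), adjusted p = 0.0327), of the first and later steps of synthesis, and Pigz, listed at 0 in all old rTreg libraries, in old aTreg against old rTreg cells. Arv1 (log2 fold change −0.85 ± 0.22 (SE), adjusted p = 0.0184) and Pigp (−0.60 ± 0.18, adjusted p = 0.0452) were lower in old than in young rTreg cells. Pgap3 was higher in young kTreg than in young rTreg cells (log2 fold change 1.29 ± 0.26 (SE), adjusted p = 0.00131), and Pgap6 in kTreg cells of both ages, by 0.77 ± 0.16 (young) and 0.87 ± 0.16 (old) against rTreg cells (adjusted p = 0.00155 and 0.00129).

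Of 16 other GPI-anchored proteins of T cells, none was called between the ages in aTreg or kTreg cells by limma (4 and 2 of 16 at an unadjusted p under 0.05, 0 and 0 called by edgeR, 3 and 0 by DESeq2). Of all genes, 2.71% and 1.26% were called there. In rTreg cells, where 5.83% of all genes were called, 1 of 16 was called. It was Cd55, a complement inhibitor that was lower in old cells (log2 fold change −1.19 ± 0.31 (SE), adjusted p = 0.02). These counts are too small to be set apart from the shares of all genes. Between the subsets, Cd160, an inhibitory receptor, was higher in aTreg than in rTreg cells in young (log2 fold change 1.53 ± 0.36 (SE), adjusted p = 0.0165) and old mice (log2 fold change 1.19 ± 0.36 (SE), adjusted p = 0.0396) and lower in kTreg than in aTreg cells of both ages (−2.38 ± 0.36 and −1.77 ± 0.36, adjusted p = 0.000245 and 0.0115). Thy1, the common T cell antigen, followed Ly6a in old mice, higher in old aTreg than in old rTreg (log2 fold change 0.73 ± 0.22 (SE), adjusted p = 0.0398) and lower in old kTreg than in old aTreg cells (log2 fold change −1.13 ± 0.22 (SE), adjusted p = 0.00867). Nt5e, the ecto-enzyme CD73, was higher in young aTreg (1.23 ± 0.22, adjusted p = 0.00153) and young kTreg (0.97 ± 0.22, adjusted p = 0.00297) than in young rTreg cells. Izumo1r, folate receptor 4, was lower in young kTreg than in young aTreg cells (log2 fold change −0.95 ± 0.20 (SE), adjusted p = 0.00359).

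Ly6a and Ly6e are known interferon-induced genes, so 50 genes of the type I interferon response were read beside them. Between old and young aTreg cells, where Ly6a was higher, 0 of the 50 were called by limma (8 at an unadjusted p under 0.05, 0 called by edgeR and 2 by DESeq2), with 2.71% of all genes called and a median log2 fold change of 0.01 against 0.01 over all genes. Between old aTreg and old rTreg cells it was again 0 of 50 (8 at an unadjusted p under 0.05, 1 called by edgeR and 4 by DESeq2), with 8.6% of all genes called and a median of −0.03 against 0.11. In old against young rTreg cells, 1 of 50 was called, Oas1a, a sensor of viral RNA (1.10 ± 0.21, adjusted p = 0.00216), with 5.83% of all genes called and a median of −0.22 against −0.08. In young kTreg against young rTreg cells, where 15.8% of all genes were called, 5 of 50 were called higher, among them Oas1a (log2 fold change 1.29 ± 0.21 (SE), adjusted p = 0.000112), and 6 lower, among them Usp18, which removes ISG15 (log2 fold change −1.66 ± 0.28 (SE), adjusted p = 0.000167).

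Receptors and signalling genes of the interferons and IL-27 were read in the same way. Per comparison, 0 to 2 of 19 were called higher and 0 to 3 lower, with 0.156 to 15.8% of all genes called. Ifngr1, a chain of the interferon-gamma receptor, was higher in old than in young cells of both subsets outside rTreg, with means of 23071 against 12496 normalized reads in aTreg (log2 fold change 0.88 ± 0.15 (SE), adjusted p = 0.0012) and 22119 against 12938 in kTreg cells (log2 fold change 0.79 ± 0.15 (SE), adjusted p = 0.00754). The other chain, Ifngr2, was lower in old than in young rTreg (log2 fold change −0.84 ± 0.20 (SE), adjusted p = 0.0135) and aTreg cells (log2 fold change −0.81 ± 0.20 (SE), adjusted p = 0.0282). Tbx21, which encodes the T-box factor T-bet, was higher in old than in young rTreg cells (log2 fold change 2.38 ± 0.28 (SE), adjusted p = 2.00e-05), with 168, 265, 131 and 138 in young and 961, 1168, 594 and 892 in old libraries. In young mice Tbx21 was also higher in aTreg (log2 fold change 2.28 ± 0.28 (SE), adjusted p = 4.18e-05) and kTreg cells (log2 fold change 2.07 ± 0.28 (SE), adjusted p = 1.56e-05) than in rTreg cells, and these 3 comparisons share the young rTreg libraries with those of Ly6c1. Socs3 was higher in old than in young rTreg cells (0.96 ± 0.23, adjusted p = 0.0138) and Socs1 lower (−0.59 ± 0.17, adjusted p = 0.0409), both feedback inhibitors of cytokine signals. The old rTreg libraries carried the NK cell, monocyte and plasma cell markers given above, and the part of these in the rTreg values of Tbx21 and Socs3 was not tested.

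The genes whose patterns were most like each member over the 24 libraries were found by Pearson's r of log2(value + 1). For Ly6a they were Riox2 (0.92), Bik (0.87), Lysmd2 (0.86), Cd40lg (0.86) and 2810449D17Rik (0.85). For Ly6c1 they were Klf13 (0.94), Pdlim1 (0.93), Rpl4 (0.93), A930005H10Rik (0.93) and Zfp1001 (0.91). For Ly6c2 they were Sp110-ps1 (0.84), the immunoglobulin gene Igkv5-39 (0.83), the interferon-induced Ifitm3 (0.80), A530040E14Rik (0.80) and ENSMUSG00000095672 (0.80). For Ly6e they were Eif5b (0.88), Gm16378 (0.86), Tecr (0.86), Bcas2 (0.86) and Rp9 (0.85). By Spearman's rho, Riox2 stayed first for Ly6a, Pdlim1 was first for Ly6c1 and Igkv5-39 for Ly6c2, and none of the 5 was first for Ly6e. The libraries share mice, groups and depth, so these values carry no p.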

How the data were processed

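The SMART-Seq V4 kit, which adds no molecular identifiers, was used for cDNA. Per the submitters' processing notes and the study's methods, reads were aligned to GRCm39 with HISAT2 2.2.1 and counted with HTSeq 1.99.2. The authors deposited a normalized signal per gene, which is the reads divided by 1 size factor per library from DESeq2 1.44.0. Every listed gene had 100 reads or more in sum. The strand setting, annotation release and treatment of reads with several matches are not given in the sources used here. A counter that drops or splits shared reads lowers Ly6c1 and Ly6c2.

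All values (100%) were whole multiples of 1 read within 0.1 reads, which gave back between 15045747 and 29521942 reads per library. No column was left over (0). GENCODE M39 held 17353 of the identifiers, and the other 111 kept theirs. Values were compared as log2(value + 1), with limma 3.58.1 (R 4.3.3), its mean-variance trend and 1 model of 6 groups. The 16630 genes that reached 10 normalized reads in 4 libraries or more were tested in 12 contrasts. Calls needed a Benjamini-Hochberg adjusted p under 0.05 over all these genes and a change of more than 1.5-fold. Adding 1 shrinks the ratio of 2 low values. Where some values are at or near 0, the log2 fold change can still exceed the ratio of the means. The alternatives were edgeR 4.0.16 and DESeq2 1.42.0 on the recovered reads, other pseudocounts, filters and scalings, the replicate block, and libraries left out. The code was checked with simulated reads of known changes.

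The members and the 16 lists of genes were chosen with earlier results of these data known. The rule for naming genes took the members in each comparison, the 5 genes most like each, listed genes within 200 kb, and up to 3 called genes of each list with the smallest p in each direction. Values by library of Ly6g5b, Tbx21 and the marker genes were added after their results were seen. A further sorting marker is not reported here. Each mouse gave all 3 subsets, per the series' design text, so equal replicate numbers mark 1 mouse. Within a mouse, the deviations of its libraries from their group means had median correlations of 0.15 (rTreg with aTreg), 0.091 (rTreg with kTreg) and 0.12 (aTreg with kTreg). Between mice of an age the medians were −0.033, −0.034 and −0.051, and limma's consensus correlation was 0.062. Sequences came from GRCm39 and, for promoter windows, RefSeq (GRCm38.p6). Python 3.11.15 made the summaries and plots.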

Additional observations from a re-analysis of the deposited data

Results flagged for a closer look

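Ly6c2 in young rTreg cells had 1 library far from the others, replicate 2 at 784 normalized reads against 203 to 256 in the other 3, with a gap to the nearest library of 0.909 of the group's range, above Dixon's 95% critical value for 4 libraries. The same library was highest of the young rTreg libraries in Lyz2 (6548), Jchain (1025) and the summed B cell genes (17540), and the part of these cells in the value was not tested. It was the 1 such value in 24 groups screened (4 genes in 6 groups), and chance gives about 1 in 20.

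The difference between the ages was itself past the test for 3 contrasts of a member. Ly6c1 differed by 2.23 on the log2 scale for aTreg against rTreg cells (adjusted p = 0.0246 by limma) and by 1.91 for kTreg against rTreg cells (adjusted p = 0.0339), and Ly6e by 0.49 for aTreg against rTreg cells (adjusted p = 0.0428), the last below a 1.5-fold difference. All 3 use the young and old rTreg libraries. The old rTreg libraries carried the monocyte, plasma cell and NK cell markers given in the report. The summed neutrophil genes overlapped between the ages, and S100a9 among them was at 2.00, 2684, 5193 and 2.29 in old rTreg libraries. In young rTreg libraries S100a9 was at 177, 1611, 134 and 17.1. The part of all these markers was not tested.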

How the results depend on the processing

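Beside each library left out in turn, 13 alternatives were tried, of which the removal of the 3 libraries of young mouse 2 was chosen after seeing the data. Over the members and the sum of the Ly6c genes, 718 values under these settings kept their direction and their side of the threshold, 5 were no longer called, 19 were newly called and 8 changed sign. With 1 library left out, the counts were 1364, 43, 13 and 20. The values that changed side or sign were as follows, and the cause was not tested.

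The replicate block as a fixed effect of the mouse gave calls for Ly6a in the age difference of aTreg against rTreg (1.08) and of kTreg against aTreg (−1.23), and for the Ly6c sum in old aTreg against old rTreg (−1.01), the age difference of aTreg against rTreg (1.78) and that of kTreg against rTreg (1.93, also called with the block as a random effect). The block changed no other call. The last difference was called as well with a pseudocount of 5 (1.92), a filter at 50 (1.93), equal library totals (1.94), edgeR (2.14), DESeq2 (2.14) and without young kTreg replicate 4 and old aTreg replicate 2 (2.02). DESeq2 also called Ly6c2 in old aTreg against old rTreg (−1.41) and in old against young kTreg (2.10) and the Ly6c sum in the age difference of aTreg against rTreg (1.84), and the fit of only the compared groups called the sum in young kTreg against young aTreg (−0.91). Signs changed for Ly6c2 in old kTreg against old aTreg with edgeR (0.11) and DESeq2 (0.14), and for Ly6e in old kTreg against old rTreg with equal totals (0.0045). Without young kTreg replicate 4 and old aTreg replicate 2 together, Ly6c1 (−1.13) and the Ly6c sum (−1.24) were called in old aTreg against old rTreg, Ly6a (−0.87) and Ly6c1 (−1.08) were not called in old kTreg against old aTreg, and signs changed for Ly6a in young kTreg against young aTreg (−0.053), old against young kTreg (0.098) and the age difference of kTreg against rTreg (0.024) and for Ly6c1 in that of kTreg against aTreg (0.18). Without young mouse 2, the calls of Ly6c1 in young kTreg against young aTreg (−1.25) and of Ly6a (1.03) and Ly6c2 (2.08) in old against young aTreg were lost, Ly6e was called in old against young rTreg (−0.60), and Ly6a there changed sign (−0.0022).

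With 1 library left out at a time, the log2 fold changes of results that changed side or sign had the following ranges. The range of Ly6c1 was −1.13 to −0.41 in old aTreg against old rTreg, −1.35 to −1.07 in young kTreg against young aTreg and −1.81 to −1.08 in old kTreg against old aTreg. For Ly6c1 it was also −0.71 to 0.015 in old aTreg against young aTreg, 1.80 to 2.52 in the age difference of aTreg against rTreg and −0.61 to 0.11 in the age difference of kTreg against aTreg. For Ly6c1 it was also 1.76 to 2.16 in the age difference of kTreg against rTreg. The range of Ly6a was −0.053 to 0.29 in young kTreg against young aTreg, −1.32 to −0.87 in old kTreg against old aTreg and −0.050 to 0.25 in old rTreg against young rTreg. For Ly6a it was also 0.92 to 1.37 in old aTreg against young aTreg, −0.24 to 0.10 in old kTreg against young kTreg and −0.32 to 0.024 in the age difference of kTreg against rTreg. The range of Ly6c2 was −0.63 to 0.40 in old kTreg against old aTreg, −1.92 to −0.89 in old kTreg against old rTreg and 1.87 to 2.68 in old rTreg against young rTreg. For Ly6c2 it was also 1.78 to 2.22 in old aTreg against young aTreg, 1.27 to 2.30 in old kTreg against young kTreg and −0.62 to 0.19 in the age difference of aTreg against rTreg. For Ly6c2 it was also −0.79 to 0.24 in the age difference of kTreg against aTreg and −0.97 to 0.057 in the age difference of kTreg against rTreg. The range of Ly6e was −0.051 to 0.015 in old kTreg against old rTreg and −0.60 to −0.46 in old rTreg against young rTreg. The range of Ly6c1 and Ly6c2 summed was −1.24 to −0.76 in old aTreg against old rTreg, −1.54 to −1.20 in old rTreg against young rTreg and 1.55 to 2.03 in the age difference of aTreg against rTreg. For Ly6c1 and Ly6c2 summed it was also −0.24 to 0.59 in the age difference of kTreg against aTreg and 1.54 to 2.37 in the age difference of kTreg against rTreg.

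The number of genes called over all settings moved more. For old against young cells it was 970 in rTreg (494 to 1829), 451 in aTreg (239 to 837) and 209 in kTreg (62 to 426). For aTreg against rTreg it was 557 in young (344 to 1103) and 1431 in old mice (939 to 2231), for kTreg against aTreg 1156 (633 to 1447) and 366 (100 to 1331), and for kTreg against rTreg 2629 (1789 to 3037) and 1474 (959 to 2325). For the age differences it was 259 (81 to 623) for aTreg against rTreg, 26 (3 to 134) for kTreg against aTreg and 503 (275 to 848) for kTreg against rTreg. edgeR on the recovered reads called between 31 (the age difference of kTreg against aTreg) and 2421 genes (young kTreg against young rTreg). The members had 103 reads or more in every library, and the part of depth in the results was not tested.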
